A study of Mus musculus with 15 samples.

Results

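The genes described here carry bile acid handling in the hepatocyte: the synthesis enzymes Cyp7a1, Cyp8b1, Cyp27a1 and Cyp7b1, the conjugating enzymes Slc27a5 and Baat, the transporters Slc10a1 and Abcb11, and the nuclear receptors Nr1h4 and Nr0b2. They were chosen by symbol, and 10 of 10 were found among the 38087 gene rows of the deposited count table. All 10 passed the filter on low counts. RNA was read in primary hepatocytes that had been stored frozen, from the outbred mouse strain CD-1, plated under a Geltrex overlay in medium with dexamethasone, insulin, transferrin and albumin. Serum at 25% was present for 24 h in all cultures, and growth hormone at 8 ng/ml or its PBS vehicle for the last 2 h. The 13 libraries used form 5 groups. Male cells in serum of conventionally raised (ConvR) males gave 3 libraries, called male cells. Female cells in serum of germ-free (GF) females, animals without microbes, gave 3 libraries with growth hormone (GF serum with GH) and 2 with vehicle (GF serum). Female cells in ConvR male serum gave 3 libraries (male serum), and female cells in ConvR female serum gave 2 (female serum). Replicate 1 of both 2-library groups was not analysed here. Cells of each sex came from their own donor stock, so donor sex and donor cannot be told apart. The labels do not say that replicates were separate cultures or serum pools, so p-values measure a spread between samples that may be technical.

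Hepatocytes make bile acids from cholesterol. Cyp7a1 opens the classical route, Cyp27a1 and Cyp7b1 serve the alternative route, and Cyp8b1 adds the hydroxyl group that sets the share of cholic acid. Slc27a5 activates bile acids with coenzyme A and Baat joins them to taurine or glycine, after which Abcb11 (BSEP) pumps them into the canaliculus. Slc10a1 (NTCP) takes bile acids back up from blood. Nr1h4 (FXR) is the bile acid receptor, and Nr0b2 (SHP), one of its targets, is a repressor that acts on Cyp7a1 and Cyp8b1. Growth hormone and sex are known to set the levels of several liver cytochromes, Cyp7b1 among them, which is higher in male mouse liver.

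Library totals ran from 34097400 to 48742274 counts. The hepatocyte markers, 10 of 10 measured and none at 0, summed to between 37230 and 38100 CPM (counts scaled to library size) in male cells and to between 18890 and 25060 CPM over the female groups. All libraries therefore carried hepatocyte RNA, while lymphocyte markers summed to at most 2.07 CPM, with Nkg7 at 0 in every female group. Xist reached 679 CPM in replicate 1 of GF serum with GH and 488 CPM in replicate 2 of female serum, against 277 to 397 CPM in the other female libraries. For some of the results that rest on these libraries, a fit without both is also given. CPM values of the bile acid genes use library sizes scaled by TMM. Adjusted p-values are from edgeR's quasi-likelihood F test, two-sided, with Benjamini-Hochberg adjustment over 17405 genes and a threshold of 0.05.

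Per kilobase of exon, the bile acid genes differed widely in level. The median over 13 libraries was 23.8 CPM per kb for Cyp27a1, 11.8 for Nr1h4, 8.14 for Slc27a5, 5.43 for Abcb11, 3.06 for Cyp8b1, 2.27 for Baat, 1.71 for Cyp7b1 and 1.00 for Slc10a1. Nr0b2 (0.557 CPM per kb) and Cyp7a1 (0.0898 CPM per kb) were the lowest of the 10. Cyp7a1, the rate-limiting enzyme of the classical route in liver, was thus the scarcest of these transcripts in the cultured cells.

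**Figure D1:**
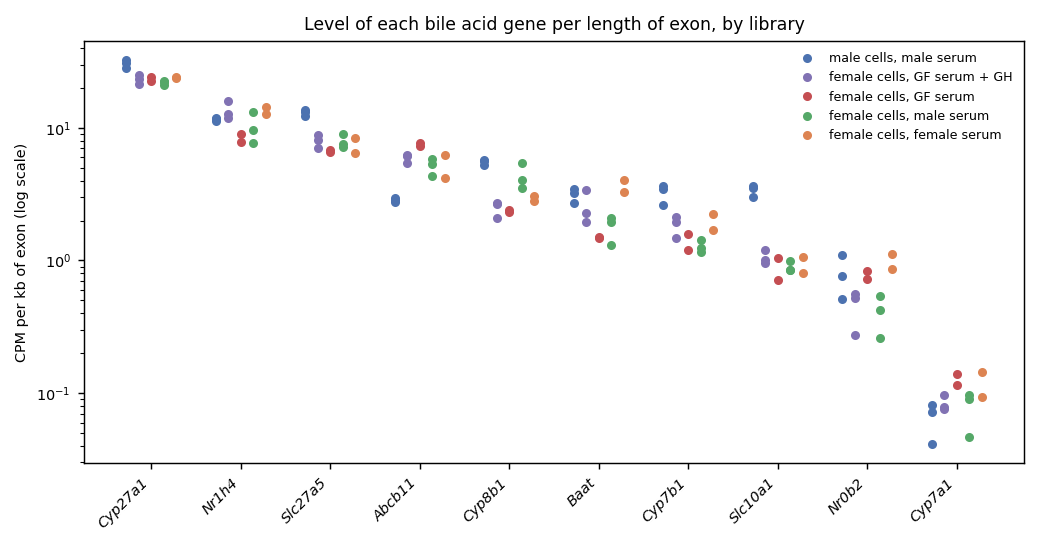
Level of each bile acid gene in CPM per kb of exon (log axis), ordered by the median over libraries, with 1 point per library and colours for the 5 groups. Cyp27a1 sits at the top with a median of 23.8 and Cyp7a1 at the bottom with 0.0898.

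Most of the set differed between male and female cells. Of the 10 genes, 5 rose and 1 fell in male cells against female cells in the same ConvR male serum, and 4 were not called. Among all genes tested 17.6% were higher and 19.0% lower, so 5 of 10 higher was above that background, and 1 of 10 lower below it. Slc10a1 rose most, by a log2 fold change of 1.91, followed by Cyp7b1, Baat, Slc27a5 and Cyp27a1, while the export pump Abcb11 fell. The median log2 fold change of the 10 genes was 0.604, against -0.021 over all genes. The 6 calls held in every alternative setting run, including each library left out in turn.

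In the same comparison the hepatocyte markers summed to 37230 to 38100 CPM in male cells and to 19750 to 21870 CPM in female cells in male serum, and 8 of 10 were called higher and 1 lower. The 10 endothelial markers summed to 78.0 to 79.3 CPM in male cells and 38.7 to 42.2 CPM in female cells, with 7 called higher, and the 10 stellate cell markers to 35.8 to 41.5 CPM and 18.7 to 26.5 CPM, with 4 higher and 1 lower. The 12 Kupffer cell markers summed to 151 to 171 CPM in male cells and 82.9 to 102 CPM in female cells, but most of that sum was Cd68 (142 to 161 CPM and 70.9 to 92.1 CPM). Of 8 Kupffer markers tested 1 was called higher, their median log2 fold change was -0.27, and Clec4f lay at 2.91 to 3.46 CPM in male cells and 3.02 to 3.53 CPM in female cells. No marker of these lists was at 0 in every library of a group, but some Kupffer markers were at 0 in single libraries. The sums of the 10 cholangiocyte markers overlapped, at 38.5 to 44.4 CPM in male cells and 39.9 to 47.7 CPM in female cells, with 3 of 9 tested higher and 1 lower. Their part in the differences of the bile acid genes was not tested. In such bulk samples a smaller share of a cell type and less RNA per cell cannot be told apart.

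Fewer of these genes differed between sera. In GF serum against female serum, Abcb11 rose and Baat and Nr1h4 fell, so 1 of 10 was higher and 2 of 10 lower, against 2.86% higher and 3.54% lower among all genes. In male serum against female serum, on female cells, Cyp8b1 rose and Baat fell, 1 and 1 of 10, against 3.95% and 4.85%. Median log2 fold changes of the 10 genes were -0.232 and -0.272, against -0.003 and 0.002 over all genes. Both comparisons use the same 2 female serum libraries, so a low or high library there enters both.

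The hepatocyte markers summed to 18890 to 19220 CPM in GF serum and to 19750 to 21870 CPM in male serum. In female serum the sum was 20730 to 24530 CPM. Of the 10 markers 6 were called lower in GF serum, and 4 lower and 1 higher in male serum. Trf was at 7328 to 7556 CPM in GF serum, 6857 to 8293 CPM in male serum and 8860 to 10790 CPM in female serum. Alb went the other way, at 6242 to 6922, 6626 to 6983 and 5821 to 5917 CPM in the same order. The stellate cell markers summed to 35.8 to 38.6 CPM in GF serum and 18.7 to 26.5 CPM in male serum, against 26.4 to 33.3 CPM in female serum, with 0 of 10 called by edgeR in either. The Kupffer cell markers summed to 128 to 136 CPM in GF serum and 82.9 to 102 CPM in male serum, against 108 to 117 CPM in female serum. Cd68 made up most of this, at 119 to 129 CPM in GF serum and 70.9 to 92.1 CPM in male serum, against 98.4 to 107 CPM in female serum. Of 8 Kupffer markers tested, edgeR called 0 in GF serum (median log2 fold change -0.07) and 1 lower in male serum (median 0.211), each against female serum. No marker of these 3 lists was at 0 in every library of a group, though some Kupffer markers were at 0 in single libraries. The endothelial and cholangiocyte sums overlapped. The part of these shifts in the results for the bile acid genes was not tested.

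GF serum against male serum, again on female cells, called 1 of 10 genes, Cyp8b1, which fell, and 0 were higher with edgeR, although 2 had an unadjusted p under 0.05 and DESeq2 called Abcb11 higher. Over all genes 0.264% were lower and 0.184% higher. By the sums given above, GF serum lay below male serum for hepatocyte markers and above it for Kupffer and stellate cell markers, without overlap. Of 8 Kupffer markers tested 1 was called higher (median log2 fold change -0.204), and of 10 hepatocyte and 10 stellate cell markers 0 were called. The part of these shifts in the fall of Cyp8b1 was not tested. Growth hormone over vehicle in GF serum called 0 of 10 genes with edgeR at the adjusted threshold, against 0.586% of all genes in either direction. At an unadjusted p under 0.05, edgeR counted 3 of the 10, and DESeq2 called 1, Nr1h4, after adjustment. The share of all genes under that unadjusted cut-off was not counted, so these unadjusted counts have no background beside them. GF serum is a side of 3 of these comparisons and male serum on female cells of 3, so their values are not independent. Hepatocyte markers summed to 20430 to 25060 CPM in GF serum with GH, above the 18890 to 19220 CPM of GF serum. Kupffer cell markers summed to 90.2 to 110 CPM in GF serum with GH, against 128 to 136 CPM in GF serum, of which Cd68 was 84.2 to 102 CPM and 119 to 129 CPM. Stellate cell markers summed to 21.6 to 30.2 CPM in GF serum with GH, below the 35.8 to 38.6 CPM of GF serum. Of the hepatocyte (10), Kupffer (8) and stellate (10) markers tested, edgeR called 0 with growth hormone. The part of these shifts was not tested.

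**Figure D2:**
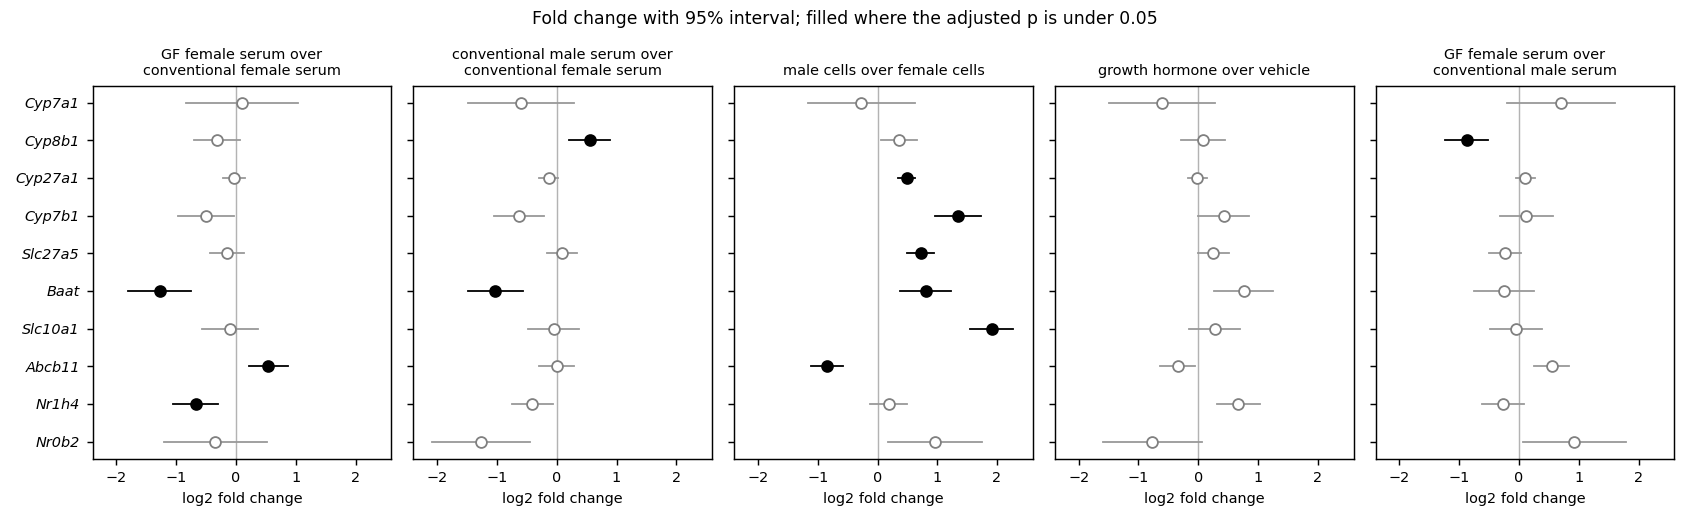
Log2 fold change (the first over the second group named above each panel) of the 10 genes in 5 comparisons, with 95% intervals from the edgeR fit and filled points where the adjusted p is under 0.05. Filled points lie mostly to the right between male and female cells, and the growth hormone panel holds none.

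Cyp7a1 (chr4:6265612-6275633, minus strand, mm10) held 6 to 27 counts per library. It measured 0.338, 0.302 and 0.173 CPM in male cells, 0.317, 0.404 and 0.326 CPM in GF serum with GH, 0.480 and 0.585 CPM in GF serum, 0.375, 0.195 and 0.405 CPM in male serum and 0.392 and 0.603 CPM in female serum. The order of means ran GF serum, female serum, GF serum with GH, male serum, male cells, and each group overlapped the next. No comparison passed the test: the estimates were a log2 fold change of -0.61 with growth hormone (adjusted p = 0.577) and 0.70 in GF serum against male serum (adjusted p = 0.602), where the libraries did not overlap. The 95% interval of the growth hormone estimate, -1.49 to 0.28, is wide at these counts.

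Cyp8b1 (chr9:121914356-121916305, minus strand), the sterol 12-alpha-hydroxylase, differed by the test in male serum against female serum and in GF serum against male serum, all on female cells. Its 250 bases upstream of the RefSeq start (GRCm38.p6, chr9:121916306-121916555, minus strand) are shown because Cyp8b1 is a textbook target of NR5A2 (LRH-1). Capitals mark the single match to CAAGGNCA, the extended site of that factor, 60 to 53 bases upstream.
Cyp8b1: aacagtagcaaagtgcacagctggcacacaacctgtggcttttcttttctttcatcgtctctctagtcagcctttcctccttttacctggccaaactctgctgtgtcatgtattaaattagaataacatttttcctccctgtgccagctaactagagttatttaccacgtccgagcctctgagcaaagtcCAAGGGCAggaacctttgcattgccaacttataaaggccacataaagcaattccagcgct
The motif, searched on both strands, occurs in 5.53% of 32851 windows of this length. Nr5a2 itself averaged 30.9 ± 4.28 CPM in GF serum (SD, n = 2), 30.0 ± 1.70 CPM in male serum (n = 3) and 44.1 ± 5.55 CPM in female serum (n = 2).

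Cyp8b1 measured 11.2, 11.0 and 10.1 CPM in male cells, 5.29, 5.20 and 4.05 CPM in GF serum with GH, 4.52 and 4.65 CPM in GF serum, 6.83, 10.5 and 7.86 CPM in male serum and 5.97 and 5.47 CPM in female serum. Male serum lay above female serum with no overlap, and both lay above GF serum. Replicate 2 of male serum, at 10.5 CPM, reached the level of male cells, and the other 2 did not. Cyp8b1 rose by 0.55 ± 0.162 in male serum against female serum (log2 fold change ± SE, adjusted p = 0.0443). The call was lost without male serum replicate 2 (log2 fold change 0.36, adjusted p = 0.129), male serum 3 (adjusted p = 0.0519), female serum 2 (adjusted p = 0.127) or female serum 3 (adjusted p = 0.197), and without both Xist-rich libraries (0.61, adjusted p = 0.115). It was also lost with library totals (0.53, adjusted p = 0.0551) and in a fit of only the 2 groups (0.56, adjusted p = 0.154).

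Cyp8b1 fell in GF serum against male serum, by 0.87 ± 0.169 on the log2 scale (adjusted p = 0.0349), the largest absolute change of the set in that comparison apart from the low-count Nr0b2. Here too it was not called without male serum 2 (log2 fold change -0.68, adjusted p = 0.122) or without either GF library (adjusted p = 0.369 and 0.234). Between male and female cells its log2 fold change of 0.36 missed the threshold (adjusted p = 0.0565), which it passed with DESeq2 (0.37, adjusted p = 0.0393), DESeq2's size factors in edgeR (adjusted p = 0.0486), no filter (adjusted p = 0.029) and without male serum 2 (0.55, adjusted p = 0.00355). With growth hormone its libraries overlapped those of vehicle (log2 fold change 0.08, adjusted p = 0.884).

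Cyp27a1 (chr1:74713574-74737892, plus strand), the mitochondrial sterol 27-hydroxylase, measured 70.6, 66.5 and 61.7 CPM in male cells, 50.5, 46.3 and 54.2 CPM in GF serum with GH, 49.3 and 52.5 CPM in GF serum, 45.5, 47.9 and 48.6 CPM in male serum and 51.7 and 52.5 CPM in female serum. Male cells stood above all 10 female libraries, which lay between 45.5 and 54.2 CPM whatever the serum. Male cells exceeded female cells in male serum by 0.49 ± 0.0691 on the log2 scale (adjusted p = 4.24e-05). The 95% interval for GF serum against female serum, -0.21 to 0.15, was narrow.

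Cyp7b1 (chr3:18071950-18243338, minus strand), the oxysterol 7-alpha-hydroxylase, had a wider spread. It measured 7.83, 7.47 and 5.68 CPM in male cells, 4.23, 3.18 and 4.62 CPM in GF serum with GH, 2.59 and 3.43 CPM in GF serum, 2.49, 2.67 and 3.09 CPM in male serum and 4.81 and 3.71 CPM in female serum. Its lowest male library, at 5.68 CPM, was above the highest female one, at 4.81 CPM. In male cells against female cells it rose 2.54-fold (log2 fold change 1.34 ± 0.181, adjusted p = 2.3e-05).

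On female cells edgeR called Cyp7b1 in no comparison of sera. Its log2 fold change was -0.63 in male serum against female serum (adjusted p = 0.0619) and -0.51 in GF serum against female serum (adjusted p = 0.197), with no overlap of libraries in either. Other settings called the difference between male and female serum: DESeq2 (-0.63, adjusted p = 0.0328), library totals in place of TMM (-0.65, adjusted p = 0.0474) and no filter (-0.65, adjusted p = 0.00916). With growth hormone the log2 fold change was 0.42 (adjusted p = 0.402) and the libraries overlapped. The lowest mean of the 5 groups was that of female cells in male serum, 2.75 ± 0.305 CPM (SD, n = 3).

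**Figure D3:**
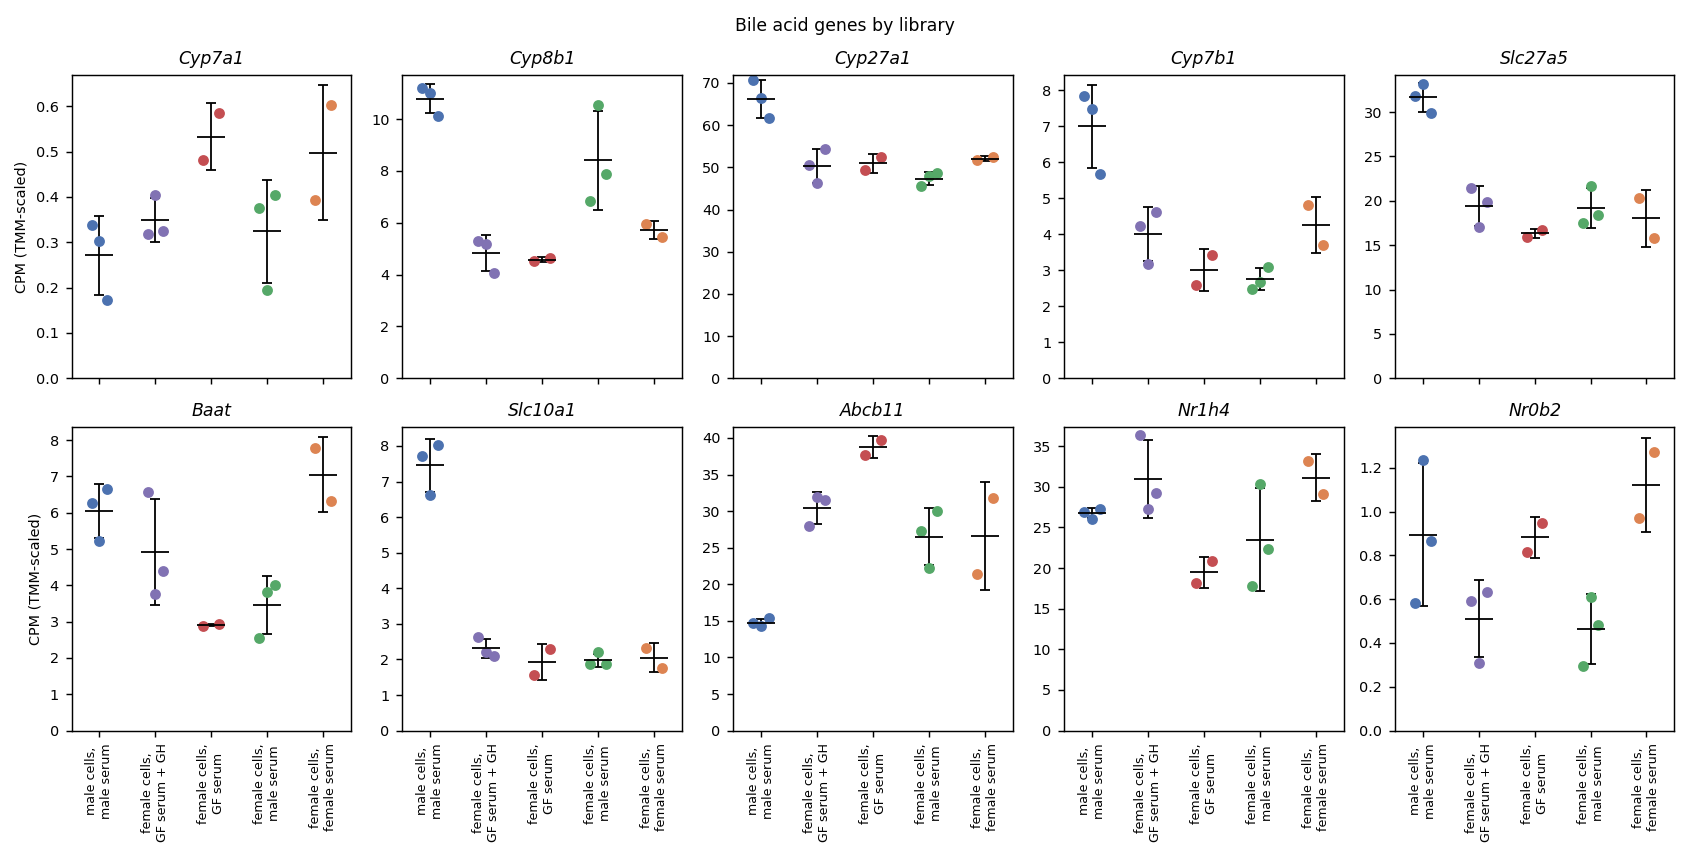
CPM (TMM-scaled) of the 10 genes in each of 13 libraries by group, with the group mean as a dash and the SD as error bars, on linear axes from 0. Slc10a1 in male cells lies at 6.62 to 8.04 CPM, above all female libraries, and Abcb11 in male cells at 14.2 to 15.3 CPM, below all of them.

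Slc27a5 (chr7:12988346-12998192, minus strand), the bile acid coenzyme A ligase, measured 31.9, 33.2 and 29.9 CPM in male cells, 21.4, 17.0 and 19.9 CPM in GF serum with GH, 16.0 and 16.7 CPM in GF serum, 17.5, 21.7 and 18.4 CPM in male serum and 20.3 and 15.8 CPM in female serum. Male cells stood clear of the female libraries, and the 4 female groups overlapped their neighbours in order. It rose by 0.72 ± 0.108 on the log2 scale in male cells against female cells (adjusted p = 6.75e-05). No serum or hormone comparison called it.

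Baat (chr4:49489422-49506557, minus strand), the amino acid conjugating enzyme, was called in both comparisons with female serum. It measured 6.27, 5.22 and 6.66 CPM in male cells, 6.56, 3.78 and 4.40 CPM in GF serum with GH, 2.88 and 2.93 CPM in GF serum, 2.54, 3.81 and 4.02 CPM in male serum and 7.78 and 6.32 CPM in female serum. Female serum was the highest group and its libraries lay above those of GF and male serum. Baat fell by 1.28 ± 0.247 on the log2 scale in GF serum against female serum (adjusted p = 0.00624), or 2.43-fold. Without the Xist-rich libraries the log2 fold change was -1.12 (adjusted p = 0.0227), but in the fits that left out only female serum 2, GF serum 2 or GF serum 3 the adjusted p was 0.0657, 0.0618 and 0.0584.

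Baat fell by 1.03 ± 0.217 on the log2 scale in male serum against female serum (adjusted p = 0.00767). Without female serum 2, the higher of that pair, the log2 fold change was -0.87 (adjusted p = 0.0839), and without both Xist-rich libraries -0.87 (adjusted p = 0.0316). Male cells exceeded female cells by 0.80 ± 0.203 (adjusted p = 0.00529). With growth hormone its log2 fold change was 0.76 (adjusted p = 0.189). The 3 growth hormone libraries lay above both vehicle libraries, the highest being the Xist-rich replicate 1, without which, and without female serum 2, the estimate was 0.49 (adjusted p = 0.559).

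Slc10a1 (chr12:80953183-80968705, minus strand), the sodium-dependent uptake carrier, separated the sexes of the cells most among the 10 genes. It measured 7.71, 6.62 and 8.04 CPM in male cells, 2.62, 2.21 and 2.10 CPM in GF serum with GH, 1.56 and 2.28 CPM in GF serum, 1.87, 2.20 and 1.87 CPM in male serum and 2.33 and 1.76 CPM in female serum. The male libraries were all above 6.6 CPM and the 10 female libraries all below 2.7 CPM, while the female groups overlapped one another. It was 3.76-fold higher in male cells than in female cells (log2 fold change 1.91 ± 0.171, adjusted p = 2.84e-07).

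Slc10a1 was called in no comparison of sera: its log2 fold change was -0.10 in GF serum against female serum, with a 95% interval of -0.57 to 0.37. With growth hormone it was 0.27 (adjusted p = 0.613). The window upstream of its first RefSeq start (GRCm38.p6, chr12:80968706-80968955, minus strand) is shown for its STAT motif, since growth hormone acts through STAT5 in liver. Capitals mark its match to the STAT motif TTCNNNGAA, 53 to 45 bases upstream.
Slc10a1: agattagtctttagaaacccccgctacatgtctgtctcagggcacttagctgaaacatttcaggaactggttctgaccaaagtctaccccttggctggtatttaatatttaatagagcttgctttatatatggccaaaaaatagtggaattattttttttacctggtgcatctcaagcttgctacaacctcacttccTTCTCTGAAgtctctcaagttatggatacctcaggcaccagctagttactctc
This motif occurs in 7.02% of the 32851 windows. The Nr0b2 window also held a match, TTCAATGAA, 91 to 83 bases upstream, and the window of another Slc10a1 start held none. A match describes the letters only, and a part of STAT5 in these differences was not tested.

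Abcb11 (chr2:69238282-69342616, minus strand), the bile salt export pump, ran opposite to Slc10a1. It measured 14.7, 14.2 and 15.3 CPM in male cells, 27.9, 31.9 and 31.5 CPM in GF serum with GH, 37.7 and 39.8 CPM in GF serum, 27.3, 22.2 and 30.0 CPM in male serum and 21.3 and 31.9 CPM in female serum. GF serum was the highest group and stood clear of the next, male cells were the lowest and stood clear of the rest, and the 3 groups between overlapped. In male cells against female cells Abcb11 fell by 0.85 ± 0.129 on the log2 scale (adjusted p = 8.57e-05). Its exons share 136 bases with the antisense model Gm13613 and 19 with the pseudogene Gm13614, which held 43 and 278 counts against 14208 of Abcb11.

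Abcb11 rose by 0.54 ± 0.151 on the log2 scale in GF serum against female serum (adjusted p = 0.0422). The 2 female serum libraries differed from each other about as much as the groups did: without female serum 2, at 21.3 CPM, the log2 fold change was 0.28 (adjusted p = 0.423), and without female serum 3 it was 0.86 (adjusted p = 0.0023). The call was also lost without GF serum 2 (adjusted p = 0.132) or GF serum 3 (adjusted p = 0.215), and in a fit of only the 2 groups (0.55, adjusted p = 0.104). In GF serum against male serum the log2 fold change was likewise 0.54 (adjusted p = 0.0914). Neither Xist-rich library is in these 2 groups, and the fit without them called Abcb11 there, at a log2 fold change of 0.55. Female serum 2 is itself Xist-rich. Without both such libraries the log2 fold change in GF serum against female serum was 0.28 and was not called. In male serum against female serum it was 0.00 (adjusted p = 0.996; 95% interval -0.30 to 0.29), and its sign turned with DESeq2's size factors. With growth hormone its log2 fold change was -0.35 (adjusted p = 0.306), with no overlap between the groups.

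The Abcb11 window is shown because this promoter is a classic FXR target, and its receptor is in the set. It runs over chr2:69342617-69342866 (GRCm38.p6, minus strand). Capitals mark an inverted repeat of AGGNCA and TGNCCT set 1 base apart, the layout that FXR with RXR is known to bind, 63 to 51 bases upstream of the start. It holds the hexamer AGGTCA on the opposite strand.
Abcb11: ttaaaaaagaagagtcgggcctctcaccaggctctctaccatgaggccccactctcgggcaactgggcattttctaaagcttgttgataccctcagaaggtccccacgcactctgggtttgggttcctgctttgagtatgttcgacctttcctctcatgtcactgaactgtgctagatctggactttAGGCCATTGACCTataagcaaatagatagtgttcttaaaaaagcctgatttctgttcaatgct
Only 28 of 32851 windows (0.0852%) hold this repeat, whereas the hexamer alone occurs in 14.0%. Of the 10 genes, 6 had a RefSeq window, and among these Abcb11 was the one with the repeat.

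Uptake and export can be set against each other within a library. The ratio of Slc10a1 to Abcb11, each per kb of exon, was 1.22, 1.09 and 1.23 in male cells and 0.161, 0.231 and 0.146 in female cells in male serum. Over all 10 female libraries it ran from 0.0970 to 0.256, so the uptake carrier was the more abundant per length in male cells and the export pump in all female libraries. The means were 1.18 ± 0.0800 in male cells and 0.179 ± 0.0455 in female cells in male serum (SD, n = 3 each). An exact permutation test gave a two-sided p = 0.1, the smallest that 3 against 3 allows. Both genes already separated these libraries in opposite directions, so that p was fixed in advance and adds nothing to their calls.

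Nr1h4 (chr10:89454234-89533585, minus strand), the bile acid receptor, measured 26.8, 26.1 and 27.3 CPM in male cells, 36.4, 27.3 and 29.2 CPM in GF serum with GH, 18.1 and 20.8 CPM in GF serum, 17.8, 30.4 and 22.3 CPM in male serum and 33.1 and 29.1 CPM in female serum. GF serum was the lowest group by mean, and its 2 libraries lay below all of female serum and of GF serum with GH. Nr1h4 fell by 0.68 ± 0.180 on the log2 scale in GF serum against female serum (adjusted p = 0.0349). This was not called without female serum 2 (log2 fold change -0.58, adjusted p = 0.234), GF serum 2 (adjusted p = 0.21) or GF serum 3 (adjusted p = 0.103), nor without the Xist-rich libraries (-0.58, adjusted p = 0.174).

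With growth hormone Nr1h4 had the lowest p of the 10 genes, a log2 fold change of 0.67 ± 0.167 with a 95% interval of 0.32 to 1.03, but an adjusted p of 0.107. DESeq2 gave 0.67 with an adjusted p of 0.00642, and a fit of only those 2 groups an adjusted p of 0.0254. Without the Xist-rich libraries the edgeR estimate was 0.54 (adjusted p = 0.308). Male serum replicate 2, at 30.4 CPM, was well above the others of its group. Without it, Nr1h4 was called in male serum against female serum (log2 fold change -0.63, adjusted p = 0.00738), and with it not (-0.41, adjusted p = 0.137). In male cells against female cells its log2 fold change was 0.19 (adjusted p = 0.349), and 0.41 without male serum 2 (adjusted p = 0.0171).

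Nr0b2 (chr4:133553376-133556536, plus strand), the repressor downstream of FXR, held 11 to 57 counts per library. It measured 0.584, 1.24 and 0.864 CPM in male cells, 0.592, 0.309 and 0.631 CPM in GF serum with GH, 0.817 and 0.947 CPM in GF serum, 0.294, 0.612 and 0.480 CPM in male serum and 0.970 and 1.27 CPM in female serum. Female serum lay above GF serum and male serum without overlap, and GF serum above GF serum with GH. The edgeR fit called it in no comparison. The log2 fold changes were -1.27 in male serum against female serum (adjusted p = 0.0515), 0.96 in male against female cells (adjusted p = 0.053), 0.93 in GF serum against male serum (adjusted p = 0.431) and -0.77 with growth hormone (adjusted p = 0.421). Male serum against female serum was called with DESeq2 (-1.28, adjusted p = 0.0298), library totals (adjusted p = 0.0468), no filter (adjusted p = 0.0124) and without male serum 2 (-1.52, adjusted p = 0.038). Male against female cells was called with DESeq2 (0.97, adjusted p = 0.0445), no filter (adjusted p = 0.0396), without replicate 1 of male cells (1.19, adjusted p = 0.0264) and without male serum 2 (1.20, adjusted p = 0.0362).

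Other genes of the pathway were read from 4 further lists. Of 15 other synthesis enzymes, all tested, 9 rose and 2 fell in male cells against female cells, where 17.6% of all genes rose and 19.0% fell. The rises included Cyp2a12 (log2 fold change 2.83, adjusted p = 1.14e-09), Cyp2c70 (1.41, adjusted p = 4e-06), which makes muricholic acids in mice, and Scp2 (1.33, adjusted p = 1.11e-10), the peroxisomal thiolase that shortens the side chain. Cyp46a1, a cholesterol 24-hydroxylase known from neurons, fell by 2.09 (adjusted p = 6.63e-07). The list's median log2 fold change was 0.533. Between GF serum and female serum 3 differed, where 3.54% of all genes fell, and all 3 fell: Acox2, the peroxisomal oxidase of bile acid intermediates (-1.11, adjusted p = 0.000718), Acaa1b (-0.74, adjusted p = 0.0412) and Scp2 (-0.29, adjusted p = 0.0331). That count was lower without female serum 2, GF serum 2 or GF serum 3, as was the number called among all genes. Acox2 (-0.81, adjusted p = 0.00161) and Scp2 (-0.37, adjusted p = 0.00333) also fell in male serum against female serum, 2 of 15, where 4.85% of all genes fell.

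Of 19 other carriers of bile acids and biliary lipids, 18 were tested. In male cells against female cells 9 rose and 2 fell, against 17.6% and 19.0% of all genes, with a median log2 fold change of 0.492. Slco1a1, a sinusoidal organic anion carrier known to be male-biased in mouse liver, rose by 2.44 (adjusted p = 9.45e-09), and Abcb4, the phosphatidylcholine exporter, by 1.61 (adjusted p = 1e-08). Abcc4, a basolateral bile acid exporter, fell by 1.22 (adjusted p = 1.95e-06) and Abcb1a by 1.00 (adjusted p = 7.16e-07). Of the 18, 2 rose and 7 fell in GF serum against female serum (2.86% and 3.54% of all genes), with Abcb4 at -1.02 (adjusted p = 0.00049), Slc10a5 at -0.83 (adjusted p = 0.0473), Abcg8 at -0.78 (adjusted p = 0.042) and Abcb1a at 0.86 (adjusted p = 0.000625). Fewer than 7 fell without female serum 2, GF serum 2 or GF serum 3, and fewer of all genes were called in those fits too. The counts in male serum against female serum were 1 that rose and 4 that fell (3.95% and 4.85% of all genes), Abcb4 again by 1.01 (adjusted p = 7.88e-05) and Atp8b1, the canalicular flippase, by 0.75 (adjusted p = 0.000454), while Abcb1a rose by 0.59 (adjusted p = 0.00301).

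Of 20 regulators of bile acid synthesis, 19 were tested. In male cells against female cells 3 rose and 5 fell, near the 17.6% and 19.0% of all genes, with Dbp at 1.24 (adjusted p = 0.0373), Prox1 at 0.66 (adjusted p = 0.00105) and Klb, the co-receptor of the FGF15 signal, at -0.84 (adjusted p = 0.00619). The falls numbered 10 with library totals in place of TMM. Of the 19, 5 fell in GF serum against female serum (3.54% of all genes), among them Nr1i2, the xenobiotic receptor PXR (-0.70, adjusted p = 0.0244), Nr5a2 (-0.51, adjusted p = 0.0167), Foxa2 (-0.48, adjusted p = 0.00943) and Nr1h3 (-0.45, adjusted p = 0.0344). Fewer than 5 fell without female serum 2, GF serum 2 or GF serum 3, where fewer of all genes were called too. In male serum against female serum 4 fell (4.85% of all genes), namely Nr1i2 (-0.72), Nr2f2 (-0.65), Foxa2 (-0.64) and Nr5a2 (-0.55). Without female serum 2 fewer of them were called, as were fewer of all genes.

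Known FXR targets of liver, 14 of 15 tested and 4 of them among the 10 genes above, were mixed. In male cells against female cells 7 rose and 2 fell, against 17.6% and 19.0% of all genes, with Gsta4 at 1.07 (adjusted p = 3.35e-06) and Osgin1 at -0.85 (adjusted p = 0.000793). In GF serum against female serum 1 rose, Abcb11, and 3 fell, Baat, Abcb4 and Apoc2 (-0.71, adjusted p = 0.0426), where 2.86% of all genes rose and 3.54% fell. Both counts were lower without female serum 2, GF serum 2 or GF serum 3, as was the number called among all genes. Baat and Abcb4 fell in male serum against female serum, where 4.85% of all genes fell. With growth hormone, and in GF serum against male serum, edgeR called 0 genes of these 4 lists in either direction. Of the 63 genes tested, 15 and 10 had an unadjusted p under 0.05. The share of all genes under that cut-off was not counted. DESeq2 called 0 with growth hormone and 1, Abcb11, in GF serum against male serum.

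**Figure D4:**
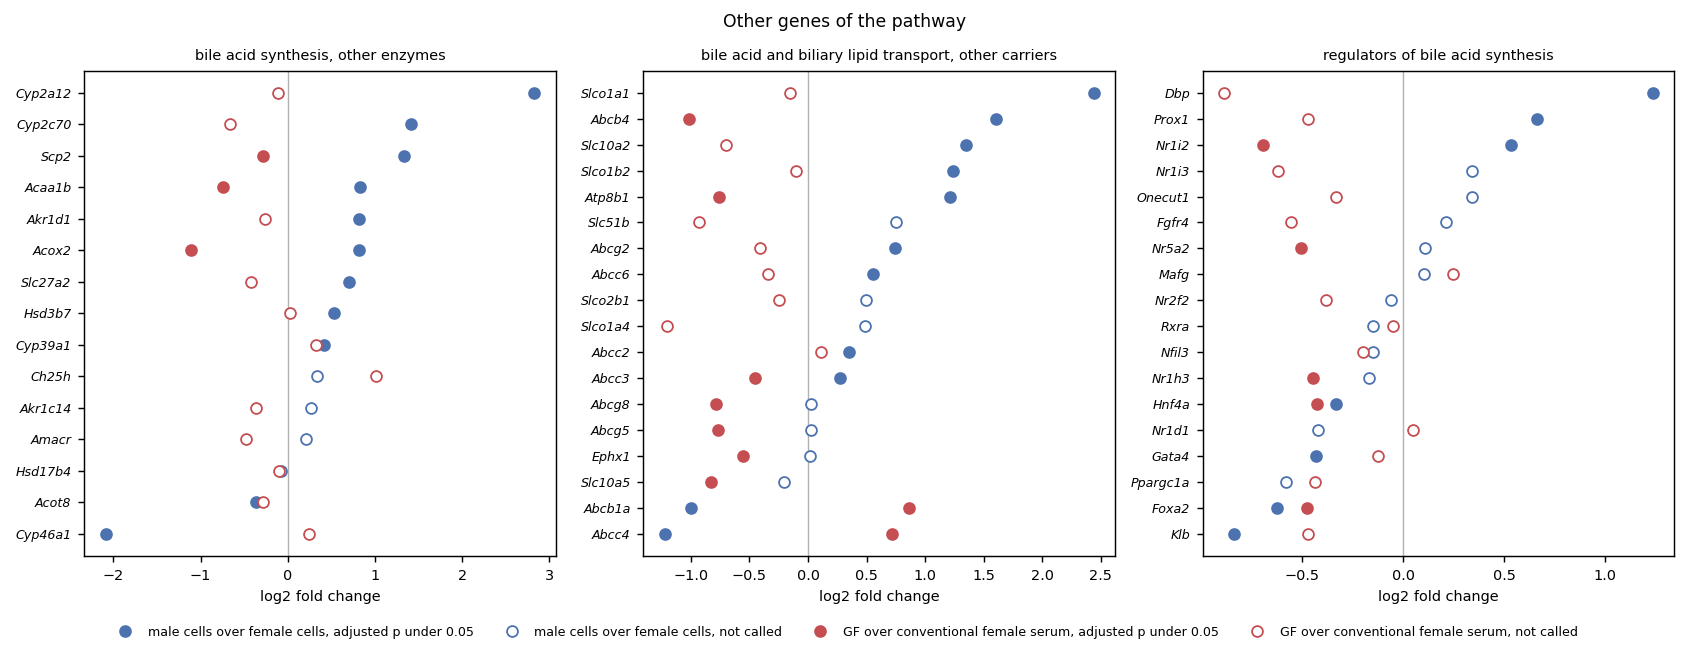
Log2 fold change of the other pathway genes by list, 1 regulator left out, in GF serum against female serum and in male cells against female cells; filled points have an adjusted p under 0.05. Cyp2a12 at 2.83 and Slco1a1 at 2.44 lie far to the right between the cells, and Cyp46a1 at -2.09 far to the left.

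The genes whose log2 CPM followed these patterns most closely over the 10 female libraries were sought among 11291 genes. For Abcb11 they were Fundc1 (Pearson r = 0.978) and Sgms2 (0.971), for Baat Hspa14 (0.979), Dnajc5 (0.972) and Dck (0.970), and for Cyp7a1, at its low counts, Zfp346 (0.923), Neil2 (0.909) and Vhl (0.904). These are the highest of many correlations over libraries that share serum, depth and donor, and are given as a description.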

How the data were processed

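The 10 genes and the gene lists were chosen with earlier results of these data known. RNA of 13 libraries was sequenced from stranded total RNA libraries after depletion of ribosomal RNA, per the labels' protocols. The authors deposited unscaled read counts for the exons of each gene; reads were aligned with STAR 2.4.0i to mm10, per the submitters' processing notes. For the counting program, annotation, strand setting and filters nothing is given in the sources used here, so reads of overlapping or antisense genes cannot be told apart. Of 15 columns, 2 share a header, could not be assigned to a sample and were used in no step; the design had assumed 15 libraries.

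Counts were scaled by TMM and filtered by filterByExpr with a minimum count of 10 (edgeR 4.0.16, R 4.3.3). The 17405 genes left were fitted in 1 model of 5 groups without covariates (8 residual degrees of freedom, biological coefficient of variation 9.02%) and tested by the quasi-likelihood F test with Benjamini-Hochberg adjustment. Depth is given in the report. Standard errors are the log2 fold change over the square root of F. Exon lengths and positions came from GENCODE M21 (36308 of 38087 rows matched), promoter windows from RefSeq (GRCm38.p6). The chi-square between replicates of a group, divided by its degrees of freedom, was 5.46 to 53.4 over genes with a summed count of at least 20. No library was thus a copy of another in its group, and libraries of different groups were not compared this way. List genes were matched by symbol (122) or gene identifier (3). All 10 genes were named in every comparison, with up to 4 called genes per list by absolute fold change; single others are named after their values were seen. A few genes that these rules name are not reported here. Likeness used log2(CPM + 0.1) over genes with a mean count of at least 50. The method was also run on counts simulated from the means and dispersions of these libraries, and the outcome is not reported here. Alternatives were RLE scaling, library totals, DESeq2 1.42.0, no filter, a fit of 2 groups, a replicate block, each library left out, and both Xist-rich libraries left out.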

Additional observations from a re-analysis of the deposited data

How the results depend on the processing

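Every setting below was compared with the values in the report. All 6 calls between male and female cells held throughout; the calls between sera did not, and the cause was not tested. Small groups of 2 libraries, and counts of 6 to 57 per library for Cyp7a1 and Nr0b2, limit what could be called.

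The number of genes called in GF serum against female serum was 1115, against 1731 with no filter, 611 in a fit of only the 2 groups, which called 2 of the 10 bile acid genes, and 367 without both Xist-rich libraries, which called 1 of the 10 in place of 3. With single libraries left out it ran from 269 to 1225, and the bile acid genes called from 0 to 3. The count was 1532 in male serum against female serum, against 468 in the 2-group fit and 825 without both Xist-rich libraries. The bile acid genes called there were 2, against 4 with DESeq2, 5 with no filter and 1 each in the 2-group fit and with the replicate block. Without both Xist-rich libraries, fewer of all genes and fewer of the bile acid genes were called. Leaving out single libraries gave 663 to 1652 genes and 0 to 3 bile acid genes. Between male and female cells the same ranges were 5248 to 6090 and 6 to 9.

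Growth hormone called 102 genes, against 272 with DESeq2, 796 with no filter, 156 in the 2-group fit and 62 with the replicate block, and 33 to 190 with single libraries left out. Of the bile acid genes it called 0, against 1 with DESeq2, 3 with no filter, 1 in the 2-group fit and 0 to 0 with single libraries left out. GF serum against male serum called 78 genes, against 311 with DESeq2, 622 with no filter, 31 with the block and 286 without both Xist-rich libraries, and 2 to 160 with single libraries left out. The bile acid genes called were 1, against 2 with DESeq2 and 2 with no filter. They were 0 in the 2-group fit, 0 with the block and 0 to 1 with single libraries of male serum left out. Neither Xist-rich library is in these 2 groups, so leaving both out acted only through the shared fit, which then called Abcb11 as well as Cyp8b1.

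Reversed signs were all of uncalled log2 fold changes near 0, and most came from leaving out single libraries. Over those fits, GF serum against female serum gave Cyp7a1 -0.185 to 0.432, Cyp27a1 -0.082 to 0.01, Slc27a5 -0.318 to 0.046 and Slc10a1 -0.396 to 0.151. Without both Xist-rich libraries Cyp7a1 was -0.182, Slc27a5 0.049 and Slc10a1 0.114. Male serum against female serum gave Slc27a5 -0.085 to 0.279, Slc10a1 -0.24 to 0.162 and Abcb11 -0.267 to 0.312, and without both Xist-rich libraries Slc10a1 was 0.161. Abcb11 there was also 0.002 with RLE, 0.001 with DESeq2, 0.003 in the 2-group fit and 0.02 with the block. Growth hormone gave Cyp27a1 -0.073 to 0.04. GF serum against male serum gave Cyp7b1 -0.084 to 0.316 and Slc10a1 -0.34 to 0.207.

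Deviations of same-numbered samples correlated at -0.016 to 0.126. Different-numbered samples were not set beside these, so whether the replicate numbers pair the samples was not tested. With the block, Nr1h4 in GF serum against female serum had an adjusted p of 0.0625, and Cyp8b1 had 0.0502 in male serum against female serum and 0.0548 in GF serum against male serum.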
